A study of Mus musculus with 20 samples.

Results

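The lymphotoxin and tumor necrosis factor (TNF) ligand genes Ltb, Lta, Tnf, Fasl, Tnfsf10, Tnfsf14 and Tnfsf8, together with the lymphotoxin beta receptor gene Ltbr, were followed across 9 sorted mouse bone marrow populations. Every probe set annotated to these 8 symbols was taken, which gave 12 probe sets of the 45101 on the array and 8 genes of the 18194 with a probe set of their own. The set was built around Ltb, which was picked because its measured level was lower in natural killer (NK) cells without Ets1. Ltb is therefore described, and not tested, wherever the NK arrays that carry Ets1 enter a comparison. All 8 genes and 11 of the 12 probe sets passed the filter on dim probe sets, and the second Tnfsf14 probe set, 1421588_at, did not. No member lay on a probe set shared by several symbols.

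The study looked for Ets1-dependent NK cell genes, and hybridised 20 arrays of cells from mice aged 8 to 14 weeks. Wild-type C57bl/6 marrow gave hematopoietic stem cells (HSC, 2 arrays), multipotent progenitors (MPP, 2), lymphoid primed multipotent progenitors (LMPP, 2), common lymphoid progenitors (CLP, 3), granulocyte-monocyte progenitors (GMP, 3), pro-B cells (2) and CD4 T cells (2). Mature NK cells came from strain 129 mice of genotype Rag2-- Ets1++ (2 arrays) or Rag2-- Ets1-- (2 arrays), so that both NK groups lacked Rag2, the recombinase gene that B and T cells need to develop. Strain, Rag2 genotype and cell type cannot be told apart where NK cells are set against another population. The labels do not name the kind of Ets1 allele, and nothing in the labels says that replicate arrays came from separate mice, so the p-values measure the spread between arrays, which may be technical.

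Ltb encodes lymphotoxin beta, a membrane protein that anchors lymphotoxin alpha, the product of Lta, at the surface of lymphocytes. The heterotrimer binds the lymphotoxin beta receptor on stromal and myeloid cells, which signals through TRAF adaptors and the alternative NF-kB pathway and is known for its part in lymph node formation. Lymphotoxin alpha alone and TNF bind the TNF receptors instead. Fasl and Tnfsf10 encode the death ligands FasL and TRAIL, both used by NK cells to kill targets, whereas Tnfsf14 encodes LIGHT, a second ligand of the lymphotoxin beta receptor, and Tnfsf8 encodes CD30 ligand, a costimulatory molecule of activated T cells. Ets1 belongs to the ETS family of transcription factors, whose binding sites hold the core letters GGAA.

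Ltb, Tnf and Lta lie next to each other on mouse chromosome 17, and their promoters are shown because Ltb was chosen for its lower level without an ETS factor while its neighbours serve as a contrast. The 250 bases before each RefSeq transcription start (assembly GRCm38.p6) are printed 5′ to 3′ on the strand of the gene, with every GGAA in capitals, written as TTCC where it lies on the other strand. The Ltb window is chr17:35194257-35194506 on the plus strand, the Lta window is chr17:35205352-35205601 on the minus strand and the Tnf window is chr17:35202008-35202257 on the minus strand.
Ltb: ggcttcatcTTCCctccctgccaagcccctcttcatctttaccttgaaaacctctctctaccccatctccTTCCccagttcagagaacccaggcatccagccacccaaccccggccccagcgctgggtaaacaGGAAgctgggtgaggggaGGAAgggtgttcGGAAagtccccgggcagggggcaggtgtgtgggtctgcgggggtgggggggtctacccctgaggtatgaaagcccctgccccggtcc
Lta: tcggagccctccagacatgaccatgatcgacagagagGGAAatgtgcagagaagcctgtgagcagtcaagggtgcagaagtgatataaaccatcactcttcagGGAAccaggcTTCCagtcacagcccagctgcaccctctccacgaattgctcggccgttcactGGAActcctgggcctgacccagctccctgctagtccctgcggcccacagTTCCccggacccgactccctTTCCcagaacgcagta
Tnf: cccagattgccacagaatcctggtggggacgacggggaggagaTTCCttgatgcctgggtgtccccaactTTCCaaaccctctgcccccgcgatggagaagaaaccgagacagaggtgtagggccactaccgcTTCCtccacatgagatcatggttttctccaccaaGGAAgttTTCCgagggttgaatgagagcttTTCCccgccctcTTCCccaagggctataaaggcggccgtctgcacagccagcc
The Ltb window held 5 matches to GGAA over both strands, of which 3 lay on the strand of the gene with first bases at -117, -99 and -87 from the start. The Lta window held 6 and the Tnf window 7. Such matches are common: 93.4% of 32851 mouse promoter windows of this length held at least 1, the median window held 3, and 18%, 8.69% and 3.82% held at least 5, 6 and 7. The longer AGGAAG, which contains GGAA, occurred 2 times in the Ltb window and 2 times in the Tnf window and was absent from the Lta window. Of all windows, 29.5% held AGGAAG and 6.25% held it at least 2 times. The window of Ltb also held 1 match to the NF-kB consensus, on the other strand with its first base at -87, overlapping the GGAA there, and 3.9% of windows held such a match. TATAAA, found in 12.4% of windows, was present in those of Lta and Tnf and not in that of Ltb. These matches describe letters only and show no bound site. Among the other members, Fasl, Tnfsf8 and Ltbr had 5 GGAA matches each, Tnfsf14 had 6 and Tnfsf10 had 2.

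Values below are log2 intensities, on which a difference of 1 is a 2-fold difference. A gene with several probe sets is represented by the one of highest mean over all arrays, and a gene is called where its adjusted p in limma is below 0.05 over the 13479 genes tested. Array medians ran from 3.78 to 4.04, so values near 4 are close to the middle of an array. NK marker genes (9 genes) summed to 14.82 to 14.99 on the 4 NK arrays and to at most 10.7 elsewhere. B cell markers were highest in pro-B cells (13.36 to 14.37) and T cell markers in CD4 T cells (13.24 to 13.31). The 3′ minus 5′ difference of the actin probe sets, larger where RNA is shorter, was 6.44 to 6.68 in GMP, 3.26 to 5.27 in CLP and 0.97 to 4.07 in the other groups. All 4 probe sets of Ets1 had lower means in the Rag2-- Ets1-- cells (-1.55, -0.93, -0.33 and -0.81), and 1 of them was called. That was 1422027_a_at (8.34 and 8.51 against 6.53 and 7.22, adjusted p = 0.00865 over all probe sets). Probe set 1452163_at still read 10.85 and 10.53 in the Rag2-- Ets1-- cells. Whether the probes lie in the altered part of the gene is unknown, so they check the genotype labels only in part.

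Ltb was the member that differed most between the NK genotypes. Its probe set read 10.24 and 10.19 in Rag2-- Ets1++ NK cells and 5.66 and 5.35 in Rag2-- Ets1-- NK cells, so that the arrays lay far apart. The difference was -4.71 ± 0.38 (SE, n = 2 and 2), or 26.2-fold, and it ran from -4.87 to -4.55 over 15 other ways of processing or fitting the arrays. With Ltb chosen on this difference, it carries no test. These are sorted but bulk populations, in which fewer cells making a transcript and less transcript per cell cannot be told apart.

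Of the 7 other members, 1 was called between the NK genotypes, against a background of 3.81% of all genes tested, and 2 had an unadjusted p below 0.05. The median difference of these 7, Ltb left out, was -0.32, beside 0.01 for all genes. Tnfsf14, encoding LIGHT, fell from 5.66 and 5.71 to 4.58 and 3.88 on probe set 1450298_at. Both arrays without Ets1 lay below both arrays with it, and the fall of 1.46 ± 0.38 passed the test narrowly (adjusted p = 0.0361). This call was lost when probe sets were averaged (-0.92, adjusted p = 0.0775), when every probe set was tested on its own (0.0535), after a repeated quantile normalization (-1.27, 0.0823), and without Ets1++ replicate 1 (-1.48, 0.195), Ets1++ replicate 2 (-1.43, 0.215) or Ets1-- replicate 2 (-1.11, 0.333). The dim second probe set of Tnfsf14 read 3.34 and 3.75 against 3.39 and 2.95, a difference of -0.38 ± 0.30.

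Tnfsf10, encoding TRAIL, read 7.03 and 6.95 with Ets1 and 6.16 and 5.19 without it on probe set 1439680_at. The groups did not overlap, but the Ets1-- arrays differed from each other, and the difference of -1.32 ± 0.38 missed the threshold (adjusted p = 0.0595). The 2 other Tnfsf10 probe sets differed in the same direction. Probe set 1420412_at read 4.96 and 5.01 against 4.15 and 3.68 (-1.07 ± 0.30, adjusted p = 0.0651 over all probe sets) and 1459913_at read 5.48 and 5.34 against 4.88 and 4.13 (-0.90 ± 0.40, 0.386). Averaging the 3 probe sets gave -1.10 with an adjusted p of 0.0251, centring on housekeeping genes gave -1.46 with 0.0401, array weights gave 0.00143, and leaving out Ets1-- replicate 1 gave -1.80 with 0.0291, all past the threshold. Leaving out Ets1-- replicate 2 instead shrank the difference to -0.83 (0.55). That replicate held the lowest NK values of Tnfsf10 (5.19) and Tnfsf14 (3.88), and its actin 3′ minus 5′ difference was 4.07 against 2.76 to 2.90 on the other NK arrays; the part of this RNA difference in both results was not tested.

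Fasl, encoding the death ligand FasL, was high in both NK genotypes on its brighter probe set, 1449235_at, with 9.40 and 9.43 against 9.41 and 8.91 (-0.26 ± 0.31, adjusted p = 0.901). Its dimmer probe set, 1418803_a_at, went the other way, from 3.78 and 4.27 with Ets1 to 5.33 and 5.03 without it. That rise of 1.16 ± 0.30 passed the test over all probe sets (adjusted p = 0.0425). It did not pass in the arrays of the 2 groups alone (0.0654), without an intensity trend (0.066), after quantile normalization (0.0649), after centring on housekeeping genes (1.01, 0.291), or without any 1 of the 4 arrays (0.91 to 1.40, 0.0825 to 0.464). The 2 Fasl probe sets therefore did not give a single direction between the genotypes.

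The other 4 members gave small differences that did not pass the test. Lta, the partner of Ltb, read 3.71 and 3.35 against 3.11 and 3.28 (-0.34 ± 0.29, adjusted p = 0.795), all below the array medians. Tnf read 5.31 and 5.24 against 5.10 and 4.80 (-0.32 ± 0.32, 0.846), and Tnfsf8 read 4.54 and 4.06 against 4.19 and 3.93 (-0.24 ± 0.37, 0.936). Ltbr, the receptor, read 3.26 and 3.43 against 3.58 and 3.36 (0.12 ± 0.24, 0.964), near the bottom of its range, and its sign turned after centring on housekeeping genes (-0.02). The genes around Ltb on chromosome 17 were looked at in gene order. Lst1, the gene next to Ltb on the side away from Tnf, gave -1.07 ± 0.30 (adjusted p = 0.0569), Nfkbil1, beyond Lta, gave -1.13 ± 0.39 (0.145), and Prrc2a, Bag6, Atp6v1g2 and Ddx39b gave -0.43 to 0.10, none called.

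**Figure D1:**
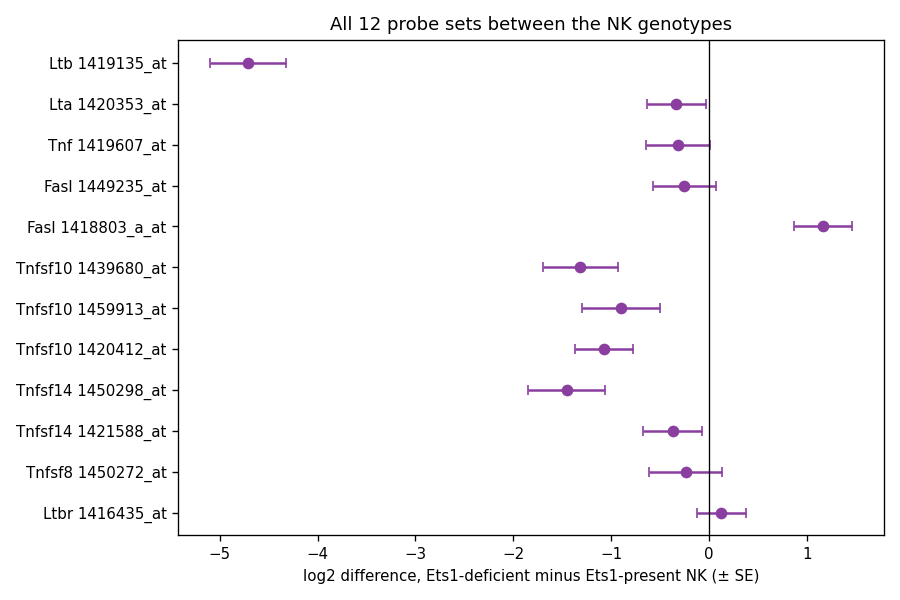
Log2 difference between Rag2-- Ets1-- and Rag2-- Ets1++ NK cells (x axis, negative where lower without Ets1) for each of the 12 probe sets (y axis); points are the differences of group means over 2 arrays each and bars are ± 1 SE. Ltb stands at -4.71, the 3 Tnfsf10 probe sets at -1.32, -0.90 and -1.07, the brighter Tnfsf14 probe set at -1.46, and the 2 Fasl probe sets lie on opposite sides of 0, at -0.26 and 1.16.

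Some markers of other cells differed with the NK genotype as well. Of 11 myeloid markers tested, 6 were lower without Ets1 (Mpo by 3.59, a granule enzyme of myeloid progenitors), and the summed level of the 12 on the array was 13.32 to 13.35 with Ets1 and 11.48 to 12.26 without it, against 14.99 to 15.02 in GMP. Ltb itself was at its lowest in GMP (3.36 to 3.64), as were Lta, Tnfsf10 and Tnfsf8 by their group means. On Tnfsf10 probe set 1420412_at, though, HSC were lowest (mean 3.28 against 3.59 in GMP). GMP, the group with the highest sum of these myeloid markers, read 4.22 to 4.69 for Tnfsf14. Yet GMP did not carry the same mix of them as the NK arrays. Ngp, Ltf, S100a8, S100a9 and Lyz2 had higher means in Rag2-- Ets1++ NK cells (Ltf 9.53 against 5.47, S100a8 12.03 against 10.71). Mpo, Elane, Ctsg, Prtn3, Csf1r and Cd14 had higher means in GMP. Of 8 T cell markers, 2 were higher without Ets1 (Cd3g and Cd3d, chains of the T cell receptor complex). The 6 others, Cd3e and Cd4 among them, were not called, and the list median was 0.09. The summed level was 9.55 to 9.65 against 8.06 to 8.23. None of the 9 NK markers was called, though 5 had an unadjusted p below 0.05, and their sum was 14.90 to 14.99 without Ets1 and 14.82 to 14.89 with it. Il7r, an early lymphoid marker carried by some innate lymphoid cells, fell by 2.59 ± 0.43 (adjusted p = 0.00113), with the 5 other early lymphoid markers not called. Of 2 stromal markers tested, Pdgfrb was higher without Ets1 (1.57 ± 0.43, 0.0498). Its means were 4.03 without and 2.47 with Ets1, below those of sorted CLP (8.14) and LMPP (8.08). Neither of the 2 tested markers of other innate lymphoid cells was called. The part of these marker differences in the results between the NK genotypes, for Ltb, Tnfsf14, Tnfsf10 and every other gene, was not tested.

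Across the 9 groups Ltb had the widest range of the members, with group means spanning 7.71. CD4 T cells were highest (11.13 and 11.28), followed by Rag2-- Ets1++ NK cells, and then by HSC (9.67 and 8.88). MPP (7.77 and 7.40) and LMPP (7.72 and 6.80) overlapped. CLP (5.62, 6.25 and 5.67), Rag2-- Ets1-- NK cells and pro-B cells (4.82 and 5.91) overlapped in turn, and GMP (3.36, 3.64 and 3.49) were lowest, below the median of every GMP array. Without Ets1, then, NK cells read a level of Ltb within the range of pro-B cells and next to that of CLP.

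Along the progenitors the level of Ltb stepped down. It fell by 1.69 ± 0.38 from HSC to MPP (adjusted p = 0.0108), a comparison in which 5.93% of all genes and 1 of the 8 members were called. T cell markers summed to 8.13 to 8.70 in HSC and 8.44 to 8.56 in MPP with none of 8 called by limma and 1 at an unadjusted p below 0.05, and their part in the HSC reading was not tested. The HSC to MPP call rested on few arrays: it was lost without HSC replicate 1 (-1.29, adjusted p = 0.105), MPP replicate 1 (-1.88, 0.055) or MPP replicate 2 (-1.50, 0.0724), and in these 4 arrays alone (0.0843). From LMPP it fell further to CLP, by 1.42 ± 0.35 (0.00583), and to GMP, by 3.77 ± 0.35 (1.75e-07). The fall to CLP was lost without LMPP replicate 1 (-0.95, 0.147), with CLP replicate 2 as the single CLP array (-1.01, 0.171), in the compared arrays alone (0.0877) and after centring on housekeeping genes (-0.56, 0.147), and CLP arrays 1 and 3 had actin differences of 5.20 and 5.27 against 1.92 to 2.10 in LMPP. The part of that RNA difference was not tested. The fall to GMP kept its call in every alternative run, with actin differences of 6.44 to 6.68 in GMP, whose part in the GMP comparisons was not tested. Between MPP and LMPP the difference was -0.32, and between CLP and pro-B cells it was -0.48 (adjusted p = 0.292), both within the spread of the arrays. The difference between CLP and pro-B cells depended on the scaling. After centring on housekeeping genes it was -1.05 and was called (0.0125).

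In CD4 T cells Ltb was 5.36 ± 0.35 above CLP (adjusted p = 5.91e-10). Rag2-- Ets1++ NK cells read 4.37 above CLP and 0.99 ± 0.38 below CD4 T cells, values given without a test. The comparisons with CLP share the CLP arrays, those with LMPP share the LMPP arrays, and those with Rag2-- Ets1++ NK cells share the NK arrays.

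**Figure D2:**
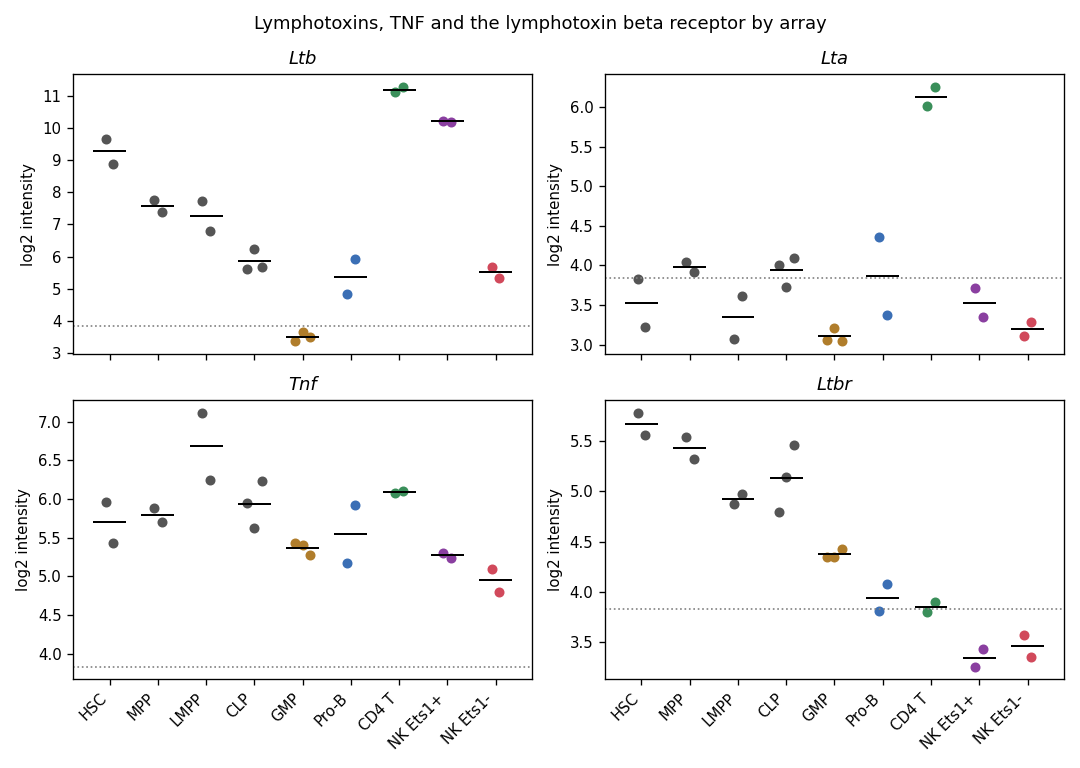
Log2 intensity (y axis, its own range in each panel) of Ltb, Lta, Tnf and Ltbr in the 9 groups (x axis); each point is 1 array, black lines are group means and the dotted line is the middle of the array medians. Ltb ran from 11.13 and 11.28 in CD4 T cells down to 3.36 to 3.64 in GMP, Lta stood clear of its other groups only in CD4 T cells (6.01 and 6.25), Tnf stayed between 4.80 and 7.12, and Ltbr was highest in HSC (5.78 and 5.55) and lowest in NK cells.

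Lta, which encodes the soluble partner of the heterotrimer, was high in CD4 T cells only (6.01 and 6.25) and read 3.04 to 4.36 on the 18 other arrays, near or below the array medians. It was 2.19 ± 0.27 higher in CD4 T cells than in CLP (adjusted p = 2.75e-06) and 2.60 ± 0.29 lower in Rag2-- Ets1++ NK cells than in CD4 T cells (1.5e-06). The partners differed in pattern: HSC and Rag2-- Ets1++ NK cells read high for Ltb, while for Lta they read 3.83 and 3.23, and 3.71 and 3.35. Neighbouring groups of Lta below CD4 T cells overlapped throughout.

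Tnf, the founding cytokine of the family, varied little, with group means spanning 1.73. LMPP were highest (7.12 and 6.25), then CD4 T cells (6.08 and 6.10), CLP (5.95, 5.63 and 6.23), MPP (5.88 and 5.71), HSC (5.97 and 5.44), pro-B cells (5.17 and 5.93), GMP (5.43, 5.40 and 5.28) and both NK groups. From CD4 T cells down to Rag2-- Ets1++ NK cells, each group overlapped with the next. Tnf fell from LMPP to GMP by 1.31 ± 0.29 (adjusted p = 0.00215), a call lost without LMPP replicate 1 (-0.88, 0.089) and after centring on housekeeping genes (-0.87, 0.0717). From MPP to LMPP it was 0.89 ± 0.32 higher without passing the test (0.291), and CLP read 0.75 below LMPP (0.0672), which became 0.11 above after centring on housekeeping genes.

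Ltbr, the receptor for the Ltb product, ran in another order, highest in HSC (5.78 and 5.55) and MPP (5.54 and 5.32), then CLP (4.79, 5.14 and 5.46), LMPP (4.87 and 4.97), GMP (4.35, 4.35 and 4.43), pro-B cells (3.81 and 4.08), CD4 T cells (3.80 and 3.90) and the NK cells. All pro-B, CD4 T and NK arrays lay below all stem and progenitor arrays. From CLP it fell by 1.28 ± 0.22 in CD4 T cells (adjusted p = 9.74e-05), by 1.78 ± 0.22 in Rag2-- Ets1++ NK cells (2.41e-06) and by 1.18 ± 0.22 in pro-B cells (0.000391). The fall in pro-B cells was lost in the compared arrays alone (0.0537), and that in CD4 T cells grew to 1.99 after centring on housekeeping genes. GMP read 0.55 below LMPP without passing (0.0654).

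Fasl was high in NK cells and intermediate in CD4 T cells (6.91 and 5.63), and read 2.42 to 3.07 on all 14 progenitor and pro-B arrays, below the array medians. On probe set 1449235_at it rose by 6.58 ± 0.28 from CLP to Rag2-- Ets1++ NK cells (adjusted p = 2.16e-12), by 3.43 ± 0.28 from CLP to CD4 T cells (1.83e-08), and was 3.14 ± 0.31 higher in NK than in CD4 T cells (2.79e-07). Probe set 1418803_a_at was dim, at 3.95 and 2.73 in CD4 T cells and 2.57 to 3.31 outside CD4 T and NK cells. Averaging the 2 probe sets cut the differences to 3.76, 1.84 and 1.91 and left them past the threshold.

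Tnfsf10, the TRAIL gene, was nearly flat, with group means spanning 1.55. Rag2-- Ets1++ NK cells were highest (7.03 and 6.95), clear of HSC (5.98 and 6.55), and the remaining groups overlapped at 5.15 to 6.29. The gene was 1.40 ± 0.34 higher in these NK cells than in CLP (adjusted p = 0.00251), a call lost with CLP replicate 2 as the single CLP array (1.07, 0.0707). It was 1.11 ± 0.38 higher than in CD4 T cells (0.0374), lost without any 1 of the 4 arrays (0.108 to 0.159), with every probe set on its own (0.0597) and after quantile normalization (0.96, 0.0614). The other probe sets gave different sizes: 1420412_at was 1.38 ± 0.27 above CLP and 1.50 ± 0.30 above CD4 T cells (adjusted p = 0.00069 and 0.00139 over all probe sets), whereas 1459913_at was highest in HSC and read only 0.15 ± 0.36 and 0.27 ± 0.40 above them (0.775 and 0.781). On 1439680_at its level without Ets1 lay within the range of the other populations.

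Tnfsf14, the LIGHT gene, was high at both ends of the series. HSC (5.47 and 6.34), MPP (5.32 and 5.43) and LMPP (5.85 and 6.25) lay between 4.99 and 6.34, as did Rag2-- Ets1++ NK cells (5.66 and 5.71) and CD4 T cells (5.56 and 4.99). CLP (2.94, 4.27 and 3.80) and pro-B cells (3.37 and 3.05) were lowest, with GMP (4.64, 4.69 and 4.22) and Rag2-- Ets1-- NK cells in between. It fell from LMPP to CLP by 2.38 ± 0.35 (adjusted p = 0.000109) and from LMPP to GMP by 1.54 ± 0.35 (0.0025). It rose from CLP by 2.02 ± 0.35 in Rag2-- Ets1++ NK cells (0.000121) and by 1.61 ± 0.35 in CD4 T cells (0.00101). Averaging both probe sets gave smaller values of -1.13, -0.92, 1.06 and 0.81, all past the threshold. Centring on housekeeping genes gave -1.52 for the fall to CLP and 0.89 for the rise in CD4 T cells, still called, whereas CLP replicate 2 alone cost the latter its call (1.00, 0.0619).

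Tnfsf8, the CD30 ligand gene, was highest in CD4 T cells, whose arrays differed (6.59 and 5.33). Rag2-- Ets1++ NK cells read 4.54 and 4.06, HSC 4.43 and 3.53, and the progenitor and pro-B arrays 3.04 to 4.20. The gene rose by 2.18 ± 0.33 from CLP to CD4 T cells (adjusted p = 3.64e-05) and was 1.66 ± 0.37 lower in Rag2-- Ets1++ NK cells than in CD4 T cells (0.00218). Without CD4 T replicate 1 the latter shrank to -1.03 (0.0681).

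**Figure D3:**
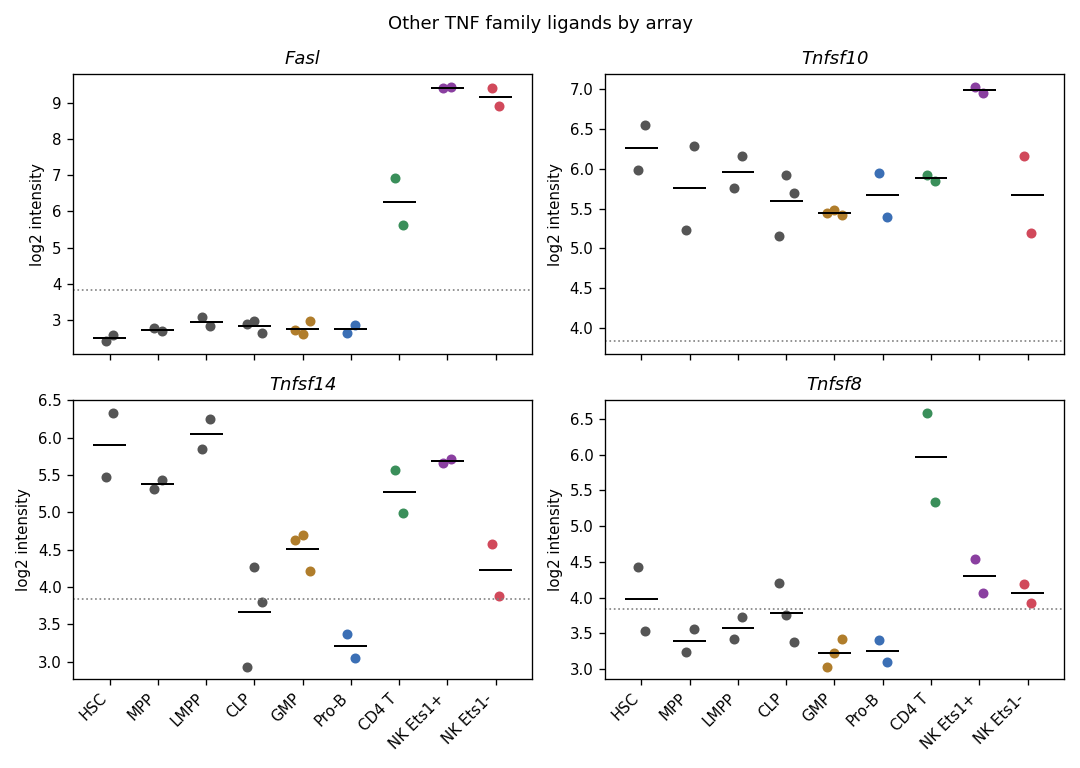
Log2 intensity (y axis, its own range in each panel) of Fasl, Tnfsf10, Tnfsf14 and Tnfsf8 in the 9 groups (x axis), for the probe set of highest mean; each point is 1 array, black lines are group means and the dotted line is the middle of the array medians. Fasl was 8.91 to 9.43 in NK cells and at most 3.07 in progenitors, Tnfsf14 was lowest in CLP and pro-B cells, and Tnfsf8 was highest in CD4 T cells.

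Set against the background, the members' counts varied by comparison. From CLP to CD4 T cells 5 of 8 rose and 1 fell, where 48.7% of all genes were called, with a median of 1.89 over the members and 0.05 over all genes. From CLP to Rag2-- Ets1++ NK cells 3 of the 7 tested rose and 1 fell, where 51.6% of all genes were called. The median of these 7, Ltb left out, was 0.52, beside 0.17 for all genes. After centring on housekeeping genes, 3 of the 7 rose and 3 fell. Between NK and CD4 T cells, 2 of 7 were higher and 2 lower in NK cells, where 24.5% of all genes were called. The median of these 7, again without Ltb, was -0.50, beside 0.03 for all genes. In pro-B cells against CLP only Ltbr was called among the 8, and it fell (35.1% of all genes; medians -0.42 and -0.02). From LMPP to CLP, 2 of 8 fell (26.1%; medians -0.24 and -0.08), whereas 3 rose and 1 fell after that centring. From LMPP to GMP 3 of 8 fell (28.9%; medians -0.53 and -0.04). From MPP to LMPP 0 of 8 were called by limma and 3 had an unadjusted p below 0.05, where 1.71% of all genes were called (medians 0.19 and 0.05). In several of these comparisons the share of members called was thus near that of all genes.

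Other genes of the same pathways were taken from 4 lists: 11 further TNF family ligands, 27 TNF receptors, 26 TRAF and NF-kB signalling genes and 9 death receptor signalling genes. Between the NK genotypes 1 receptor and 1 TRAF gene of the 56 tested fell and none rose, a share near the 3.81% of all genes. Cd27, the receptor of the costimulatory ligand CD70 and a marker of NK maturation stages, read 8.78 and 8.74 with Ets1 and 6.93 and 7.07 without it (-1.77 ± 0.32, adjusted p = 0.00241), with 21 receptors tested and a list median of -0.07. Traf1, an adaptor of TNF receptor signalling and itself an NF-kB target, read 9.41 and 9.12 against 6.23 and 7.20 (-2.55 ± 0.35, 0.000147), with 22 genes tested and a list median of -0.24. Both Traf1 probe sets were lower, by 2.55 and by 1.99 on the log2 scale. Of the 6 further ligands and the 7 death receptor genes tested, none was called by limma (0 and 1 at an unadjusted p below 0.05). The largest differences there were Tnfsf13b (0.52 ± 0.30, 0.534) and Cd40lg (0.37 ± 0.29, 0.747), and Casp8 (-0.83 ± 0.38, 0.342) and Bid (-0.66 ± 0.59, 0.804). With array weights, 6 receptors were called, 3 higher and 3 lower, and centring on housekeeping genes called 2 TRAF and NF-kB genes, both lower.

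Between CLP and CD4 T cells, 29 of the 56 pathway genes tested rose and 3 fell, where 48.7% of all genes were called. The actin 3′ minus 5′ difference was 0.97 and 1.23 in CD4 T cells against 3.26 to 5.27 in CLP, and its part in these results was not tested. Of 22 TRAF and NF-kB genes, 16 rose and none fell (list median 1.51), led by Traf5 (4.74 ± 0.35), Traf1 (4.59 ± 0.32), Relb (3.48 ± 0.28), the DNA-binding subunit of the alternative NF-kB pathway that the lymphotoxin beta receptor uses, and Tank (3.02 ± 0.42). Of 21 receptors, 10 rose and 3 fell (median 0.24): Tnfrsf25 rose by 4.81, Tnfrsf18, encoding GITR, by 3.68 and Tnfrsf4, encoding OX40, by 3.62, while Tnfrsf21, encoding death receptor 6, fell by 3.81. Of 6 further ligands, Tnfsf11, encoding RANKL, alone rose (3.25 ± 0.35), with a median of -0.24. Of 7 death receptor genes, Cflar, the caspase-8 inhibitor, rose by 2.25 and Casp8 by 1.43 (median 0.19). The Casp8 call was lost with CLP replicate 2 as the single CLP array (0.59, adjusted p = 0.2). Averaging probe sets cut several of these differences by over 1.5 times, with Traf5 at 2.31, Tank at 1.64, Tnfsf11 at 1.82, Tnfrsf21 at -2.48 and Cflar at 1.10, all still called. Centring on housekeeping genes, which shifts all genes down here (median of all genes -0.66), changed the split to 12 higher and 4 lower TRAF and NF-kB genes, 7 and 7 receptors, 1 and 4 ligands, and 2 and 2 death receptor genes, and repeated quantile normalization gave 15 and 2 TRAF and NF-kB genes.

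Against CD4 T cells, 15 of the 56 pathway genes tested were lower in Rag2-- Ets1++ NK cells and 5 were higher, where 24.5% of all genes were called (1921 higher and 1381 lower). Of 21 receptors 7 were lower and 2 higher (median -0.51), led by Tnfrsf25 (-4.63), Tnfrsf4 (-4.05), Tnfrsf13b (-3.02) and Fas (-2.70), the receptor of FasL. Of 22 TRAF and NF-kB genes 5 were lower (median -0.38), a share near that of all genes, among them Traf5 (-2.09 ± 0.38), Relb (-1.74 ± 0.31), Rel (-1.62 ± 0.56) and Ikbkb (-1.47 ± 0.33). That count was 3 without CD4 T replicate 2 or either NK replicate, 9 with array weights, and 13 (2 higher, 11 lower) in the compared arrays alone, and centring on housekeeping genes gave 2 higher and 3 lower. Averaging probe sets gave -0.89 for Traf5 and -0.64 for Ikbkb, both called. Tnfsf11 was lower by 4.16 ± 0.39 (-2.55 with probe sets averaged). Among death receptor genes Mlkl, the executor of necroptosis, was higher (2.65 ± 0.57), whereas Casp8 (-1.61 ± 0.38) and Cflar (-1.39 ± 0.27) were lower. The calls of Tnfsf9 (0.77, adjusted p = 0.0448), Rel (0.0431) and Bid (1.66, 0.046) were narrow. Those of Tnfsf9 and Bid were lost without any 1 of the 4 arrays (0.0815 to 0.265 and 0.0809 to 0.243), that of Rel without CD4 T replicate 2 (-0.95, 0.403), NK replicate 1 (0.255) or NK replicate 2 (0.0776), and that of Casp8 was lost without NK replicate 2 (-1.35, 0.0616).

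**Figure D4:**
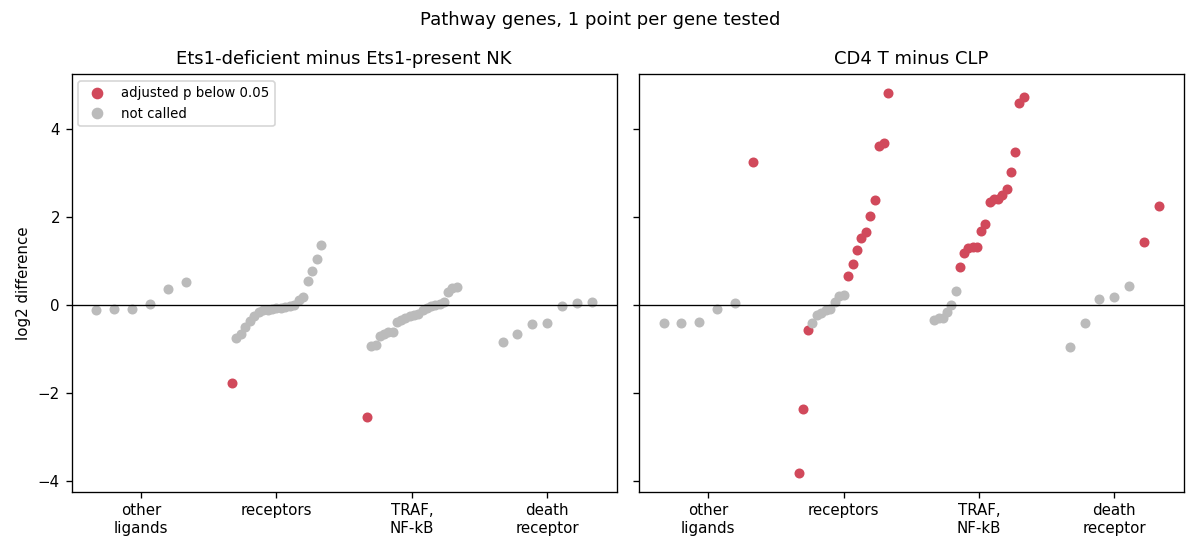
Log2 difference (y axis) of each tested gene of 4 pathway lists (x axis, genes in order of their difference within a list), between the NK genotypes (left) and between CD4 T cells and CLP (right); red points have an adjusted p below 0.05. On the left only Cd27 (-1.77) and Traf1 (-2.55) are red, and on the right 16 of 22 TRAF and NF-kB genes are red and above 0.

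Genes whose group means ran most like a member's over the 9 groups are given as a description. Nearest to Ltb were Map3k3, a kinase of the MAP kinase and NF-kB pathways (r = 0.967 over 9 group means), Otud5 (0.956) and Abcd4 (0.955). By rank correlation they were Il27ra (0.983), Krt42 (0.983) and Apbb3 (0.967). The group means of Krt42 span only 0.73 and those of Otud5 1.26, against 7.71 for Ltb. Nearest to Lta were Izumo1r (0.981), Kcnmb4 (0.977) and Camk4 (0.973), and nearest to Fasl were Il2rb (0.999), the shared beta chain of the IL-2 and IL-15 receptors, Prdm1 (0.997) and the chemokine gene Ccl5 (0.997). For Lta and Fasl such a value is set largely by the high CD4 T or NK groups. Tnfsf14 ran most like Usb1 (0.942), Psap (0.934) and Ddx5 (0.931, with group means that span 0.85). Tnfsf8 ran most like Iffo2 (0.979), Lncpint (0.979) and Relb (0.974). Ltbr ran most like Cdk20 (0.98), Angel1 (0.98) and Pyroxd2 (0.979), whose own group means span under 0.8. For Tnf and Tnfsf10, whose means span under 2, no gene was sought.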

How the data were processed

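RNA of sorted cells was amplified in 2 rounds and hybridised to Affymetrix arrays, per the labels' protocols. The authors deposited 1 table of RMA values, per the submitters' processing notes, and these are intensities on a linear scale, although a log2 scale had been planned for, so log2 was taken first. RMA normalizes between arrays, which assumes that most genes keep their level. The number of arrays limits the precision. Gene names came from the platform annotation: 34958 probe sets had 1 symbol, 932 several and 9211 none. With several probe sets, the one of highest mean over all arrays stands for the gene. Genes that exceeded their array's median on 2 or more arrays were tested with limma 3.58.1 in R 4.3.3: 1 model of 9 group means over 20 arrays (11 residual degrees of freedom), an intensity trend, and Benjamini-Hochberg adjustment over 13479 genes. The script was tested on simulated data. No exactly identical arrays were found. Members, pathway lists and marker lists were chosen with earlier results of these data known. Named are all members, up to 4 called genes of largest change of each pathway list (the 2 largest where none is called), called markers singled out after their values were seen, and the 3 genes most like each member whose means span at least 2. Promoters came from RefSeq (GRCm38.p6). Arrays sharing a replicate number deviated together in some groups, such as HSC and MPP (r = 0.37), but not in most (r from -0.23 to 0.40 over 73 pairs, 11 of them over 0.1, and 0.01 for the NK genotypes). Where both groups hold 2 arrays, replicates 1 and 2 give the same r by construction, so these counts hold repeats.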

Additional observations from a re-analysis of the deposited data

How the results depend on the processing

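Of 49 called values of named genes, 35 kept their call in every alternative run, 14 lost it in at least 1, and 0 changed sign. Among the counts of members called, averaging probe sets gave 5 from LMPP to GMP. Testing every probe set on its own and repeated quantile normalization each gave 0 between the NK genotypes. Centring on 12 housekeeping genes gave 2 between the NK genotypes, 5 for pro-B cells against CLP, and 4 from LMPP to CLP. It also moved the median of all genes, for instance from 0.05 to -0.66 for CD4 T cells against CLP and from -0.08 to 0.78 from LMPP to CLP, so the comparisons with CLP depend most on the scaling. There, CD4 T cells had 3915 higher and 2655 lower genes in the main setting, and 2081 and 6245 after centring. From LMPP to CLP the split went from 938 higher and 2584 lower to 6713 and 843. Fitting the compared arrays alone gave 0 for pro-B cells against CLP, 1 from LMPP to CLP, 5 from LMPP to GMP and 0 from HSC to MPP. Array weights gave 2 between the NK genotypes and 5 from LMPP to GMP. CLP replicate 2 as the single CLP array gave 1 from LMPP to CLP. Leaving out 1 array at a time gave 0 to 2 between the NK genotypes, 2 to 3 for NK against CD4 T cells, 1 to 3 from LMPP to CLP and 0 to 1 from HSC to MPP. Signs turned for Fasl between the NK genotypes with probe sets averaged (0.45), Ltbr there with housekeeping centring (-0.02), and Tnf from LMPP to CLP with that centring (0.11), none of them called. They also turned for Ltb without pro-B replicate 1 against CLP (-1.03 to 0.06 over the arrays left out) and without LMPP replicate 2 against MPP (-0.78 to 0.14). The cause of these changes was not tested. With the replicate number as a block, 1 member was called between the NK genotypes as without it, and Ltbr from LMPP to GMP passed the test (-0.64, adjusted p = 0.0411). The numbers are not taken to pair the samples, since most same-numbered arrays did not deviate together.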
